A study of Danio rerio with 9 samples.

Results

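The genes described here encode 5 of the 6 subunits of the MCM ring, the replicative DNA helicase, in whole zebrafish larvae. They are mcm2 (ENSDARG00000102798), mcm3 (ENSDARG00000024204), mcm4 (ENSDARG00000040041), mcm5 (ENSDARG00000019507) and mcm6 (ENSDARG00000057683), taken by their Ensembl identifiers from a table of 32520 genes. The 5 genes were chosen by their transcript levels in these same libraries, so their differences between groups are given as a description, with estimates and standard errors but no test. The remaining ring subunit, mcm7 (ENSDARG00000101180), was not among the genes chosen and serves as the nearest comparison. All 5 genes passed the filter on low values, as 5 of the 19051 genes tested.

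MCM2 to MCM7 form a ring around DNA. During G1 the origin recognition complex, CDC6 and CDT1 load MCM rings onto origins in pairs, a step called licensing, and geminin holds CDT1 back once S phase has begun. At the start of S phase the DBF4-dependent kinase phosphorylates the ring, CDC45 and the GINS complex join it, and the assembly (CMG) unwinds DNA ahead of the polymerases until it is taken off by a ubiquitin ligase and the VCP unfoldase. Because MCM transcripts are made in dividing cells and are low in resting cells, in zebrafish larvae they mark zones that still proliferate, such as the margin of the retina and the optic tectum.

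The study asked whether sialylated oligosaccharides of human milk (SHMO) and of bovine milk (SBMO) change gene expression in the larva. The libraries came from 3 pools of SHMO larvae, 3 pools of SBMO larvae and 3 pools of non-microinjected larvae (Ctrl), all of the wild-type AB strain and all collected at 5 days of age as whole bodies. SHMO and SBMO larvae had received 4.6 nL of the purified fraction at 100 mmol/L at 4.7 hpf (hours post fertilization), delivered to the yolk. Both fractions contain sialyllactoses, and the balance of sialic acid linkages differs between the human and the bovine fraction. No pool injected with the carrier solution is among the 9 libraries, so SHMO against Ctrl and SBMO against Ctrl both set injected against non-injected larvae, whereas SHMO against SBMO sets injected larvae against injected larvae. Levels are in TPM, a unit scaled by the length of each gene and the total of each library, so that levels can be compared between genes. TPM values carry no read depth, and counting error therefore could not be given. The labels call the 3 libraries of a group biological replicates without saying which parents or spawnings the larvae came from.

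Some properties of the pools bear on everything that follows. Markers of neurons, muscle, liver, skin, lens and rods were present in each pool as whole larvae should have them, for example 6468 to 16158 TPM of the muscle actin actc1b. On the first principal component, which held 40.5% of the variance, SHMO 1 lay at -21.1, away from SHMO 2 and SHMO 3 (36.0 and 34.0) and on the side of the Ctrl pools (-79.1 to -46.4), while the SBMO pools lay between 33.4 and 58.1. The 2 identifiers named rrm2, a ribonucleotide reductase subunit, divided the pools in another way. ENSDARG00000020711 had 42.9 to 89.3 TPM in SBMO 1 and the 3 Ctrl pools and at most 3.55 TPM in all other pools, whereas ENSDARG00000078069 had 66.6 to 109 TPM in the 3 SHMO pools, SBMO 2 and SBMO 3 and at most 22.6 TPM in the rest. SHMO against Ctrl lies wholly across these sets of pools, so that in this comparison the treatment and whatever parts the sets cannot be told apart. Values within a set are therefore given beside the pooled ones for mcm2 to mcm6, though not for the other genes. Genes of the circadian clock also stood apart in the SHMO pools, and their values are given after the replication genes.

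The 5 subunits were higher in SHMO larvae than in SBMO and Ctrl larvae, by a median of 2.56-fold over Ctrl and 2.01-fold over SBMO. Summed over mcm2 to mcm6, the level was 135 ± 13.9 TPM in SHMO, 64.1 ± 19.7 TPM in SBMO and 55.5 ± 5.88 TPM in Ctrl (SD, n = 3 each). In whole larvae, fewer cells that express a gene and less RNA of it per cell cannot be told apart. For each of the 5 genes every SHMO pool lay above all 6 other pools, a pattern found in 1186 genes or 6.23% of the genes tested. Since the genes were chosen by these values, nothing is read from that count. Such orders of pools, here and below, are in TPM before scaling. The scaling factors were 1.03 to 1.06 for the SHMO pools and 0.930 to 1.08 over all pools, so narrow orders can turn on the scaling.

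mcm2 encodes the subunit that forms the gate of the ring together with MCM5 and that also carries histones H3 and H4 at the fork. It had 18.6, 16.5 and 14.7 TPM in SHMO 1, 2 and 3, 9.81, 4.94 and 9.39 TPM in SBMO 1, 2 and 3, and 7.80, 5.93 and 4.81 TPM in Ctrl 1, 2 and 3. The lowest SHMO pool was above the highest pool of either other group, and the SBMO and Ctrl pools overlapped, with SBMO 2 inside the Ctrl range.

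mcm3 encodes the subunit through which, in yeast, the ring first contacts the origin recognition complex and CDC6. Its levels were 26.9, 23.6 and 20.5 TPM in the SHMO pools, 10.7, 6.84 and 13.8 TPM in the SBMO pools and 10.4, 7.92 and 8.01 TPM in the Ctrl pools. SBMO 3 was the nearest pool below SHMO, and SBMO 2 was the lowest of all 9.

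mcm4 encodes a subunit that is phosphorylated by the DBF4-dependent kinase when the helicase is switched on. It was at 35.1, 36.2 and 32.6 TPM in the SHMO pools, 19.02, 12.8 and 22.1 TPM in the SBMO pools and 18.3, 14.0 and 15.7 TPM in the Ctrl pools. The SHMO pools of mcm4 were the closest to each other in relative terms among the 5 genes, with an SD of 1.87 TPM around a mean of 34.7 TPM.

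mcm5 encodes the other side of the gate and is widely used as a marker of proliferating cells in the zebrafish eye. It had 34.2, 30.0 and 28.0 TPM in the SHMO pools, 19.3, 9.83 and 16.9 TPM in the SBMO pools and 13.9, 13.4 and 13.8 TPM in the Ctrl pools. The Ctrl pools differed by less than 1 TPM, and the SBMO pools lay on both sides of them, SBMO 2 below and SBMO 1 and SBMO 3 above.

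mcm6 encodes the subunit that, in yeast and human, binds CDT1 during loading. Its levels were 34.6, 28.7 and 25.8 TPM in the SHMO pools, 11.7, 7.56 and 17.6 TPM in the SBMO pools and 11.9, 10.5 and 10.2 TPM in the Ctrl pools. SBMO 1 lay within the Ctrl range, SBMO 2 below it and SBMO 3 above it. A second identifier that carries the name of mcm6 (ENSDARG00000033231) had between 0.04 and 0.31 TPM in the 9 pools, so its level was low beside that of ENSDARG00000057683.

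**Figure D1:**
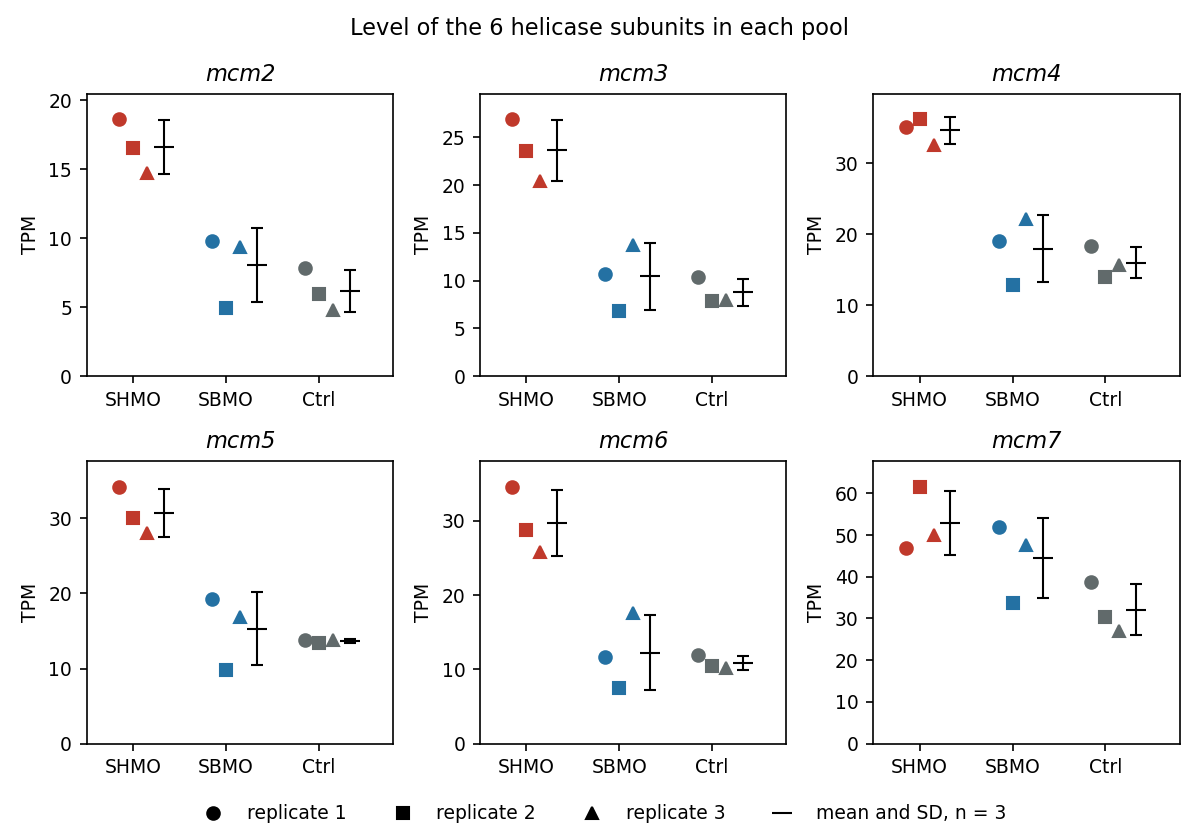
TPM (y axis, from 0) of mcm2 to mcm7 in SHMO, SBMO and Ctrl larvae (x axis); each symbol is a pool and the bar beside it is the mean with its SD (n = 3). For mcm2 to mcm6 the 3 SHMO pools sit above the other 6, while for mcm7 SHMO 1 at 46.95 TPM lies below SBMO 1 at 51.94 TPM and SBMO 3 at 47.69 TPM.

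The order of the mean levels was the same in the 3 groups, namely mcm7, mcm4, mcm5, mcm6, mcm3 and mcm2 from high to low. In SHMO larvae the means were 52.9 ± 7.72, 34.7 ± 1.87, 30.7 ± 3.17, 29.7 ± 4.47, 23.6 ± 3.22 and 16.6 ± 1.95 TPM in that order (SD, n = 3). The ranges of mcm4 and mcm5, of mcm5 and mcm6 and of mcm6 and mcm3 overlapped in SHMO. mcm4 exceeded mcm5 and mcm6 exceeded mcm3 in 3 of 3 SHMO pools, whereas mcm5 exceeded mcm6 in 2 of 3. In SBMO larvae the means were 44.4 ± 9.54, 18.0 ± 4.74, 15.3 ± 4.90, 12.3 ± 5.03, 10.4 ± 3.47 and 8.05 ± 2.70 TPM (SD, n = 3), and the ranges of all neighbours below mcm7 overlapped. In Ctrl larvae they were 32.1 ± 6.09, 16.0 ± 2.14, 13.7 ± 0.240, 10.9 ± 0.947, 8.78 ± 1.41 and 6.18 ± 1.51 TPM (SD, n = 3), where only mcm6 and mcm3 had overlapping ranges and every neighbouring pair kept its order in 3 of 3 pools. mcm2, the lowest, and mcm4, the highest of the 5, were thus separated in all groups, and mcm7 exceeded mcm4 in all pools.

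On the scale of the fitted differences, log2(scaled TPM + 0.1), the median of the 5 genes was 1.35 in SHMO against Ctrl, or 2.56-fold, beside a median of 0.04 over all genes tested. mcm6 (1.37, SE 0.240), mcm2 (1.37, SE 0.237) and mcm3 (1.35, SE 0.213) had the larger log2(FC), and mcm5 (1.09, SE 0.202) and mcm4 (1.05, SE 0.170) the smaller. The differences between these estimates are close to the size of their standard errors. All 5 met the thresholds for a call (adjusted p up to 0.05, size of the log2(FC) 0.58 or more), which 3.58% of the genes tested did in the same direction and 5.32% in the opposite direction. The choice of the genes rests on this comparison and nothing is read from the count.

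In SBMO against Ctrl the median of the 5 genes was 0.16, or 1.12-fold, beside 0.05 over all genes. The log2(FC) ran from 0.11 (mcm6, SE 0.240) to 0.36 (mcm2, SE 0.237), in each case within 2 standard errors of 0. None of the 5 was called in either direction, while 8.31% of the genes tested were called higher and 11.5% lower. The spread among SBMO pools was wide for all 5 genes, with SBMO 2 the lowest SBMO pool each time. Without SBMO 2 the log2(FC) of the 5 genes ran from 0.34 (mcm4) to 0.63 (mcm2), and the count of calls was still 0.

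In SHMO against SBMO the median of the 5 genes was 1.01, or 2.01-fold, beside -0.02 over all genes. mcm6 had the largest estimate (1.26, SE 0.240), followed by mcm3 (1.14, SE 0.213), mcm2 (1.01, SE 0.237), mcm5 (0.97, SE 0.202) and mcm4 (0.89, SE 0.170). All 5 met the thresholds, which 2.74% of the genes tested did in that direction and 1.83% in the other, and 0.546% of the genes were called higher both in SHMO against Ctrl and in SHMO against SBMO, as the 5 were. These comparisons share the SHMO pools, and the genes were chosen with both in view. The size of the difference leaned on SBMO 2, since without it the median was 0.74 and 0 of the 5 met the thresholds. The count was also 0 without SHMO 1, 2 without SHMO 2 and 1 without SHMO 3, while the median stayed between 0.74 and 1.16 over the removal of each pool in turn.

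**Figure D2:**
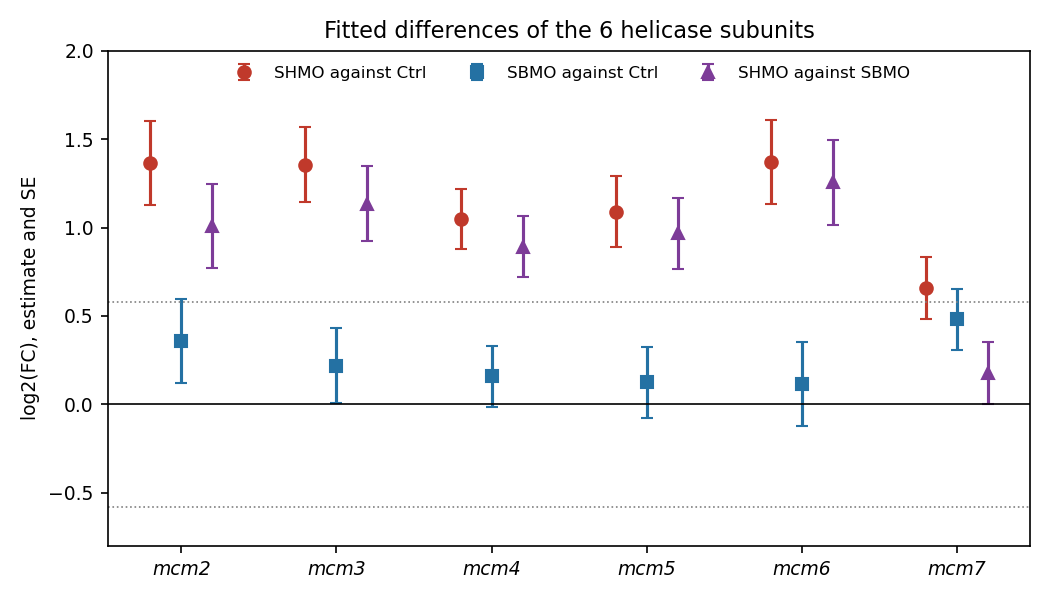
Fitted log2(FC) with its standard error (y axis) for the 6 ring subunits (x axis) in SHMO against Ctrl (circles), SBMO against Ctrl (squares) and SHMO against SBMO (triangles); dotted lines mark 0.58 in size. For mcm2 to mcm6 the circles lie between 1.05 and 1.37 and the squares between 0.11 and 0.36, whereas for mcm7 the circle is at 0.66 and the square at 0.48.

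Within the set of pools with high ENSDARG00000078069, the 5 genes were higher in the 3 SHMO pools than in SBMO 2 and SBMO 3 by a median of 1.15 log2 units, ranging from 0.92 (mcm4) to 1.24 (mcm6). The lowest SHMO pool exceeded the higher of these SBMO pools for all 5 genes, with the narrowest gap in TPM for mcm2 (14.7 TPM in SHMO 3 and 9.39 TPM in SBMO 3). Within the other set, SBMO 1 was above the mean of the 3 Ctrl pools by a median of 0.26 log2 units, from 0.07 (mcm6) to 0.65 (mcm2). mcm2 to mcm5 of SBMO 1 exceeded every Ctrl pool, mcm3 barely (10.7 TPM in SBMO 1 and 10.4 TPM in Ctrl 1), and mcm6 of SBMO 1 did not. SBMO 1 is the only injected pool of that set. The genes were chosen by these same values, so the differences within a set are a description and support nothing further. With the set of pools as a term of the model, chosen after seeing the data, the log2(FC) in SHMO against Ctrl was between 1.14 (mcm4) and 1.81 (mcm2), and 0 of the 5 were called, because that term nearly coincides with the comparison and is estimated from the SBMO pools alone.

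The 5 genes followed each other closely from pool to pool. Over the 9 pools, which share libraries and groups, Pearson's r between pairs of the 5 ran from 0.946 to 0.992 as a description. The 5 were chosen by their levels in these pools, so a high r over the 9 pools is in part fixed by that choice. After the group means were removed, r ran from 0.713 to 0.966. Some other genes followed the mean of the 5 as closely on this measure, such as pold1 (r of 0.975) and rrm1 (0.951). Others did not, such as gmnn (0.02), so the likeness is not particular to the 5. On the fitted scale SHMO 1 and SBMO 3 were above their group mean for all 5 genes, and SHMO 3 and SBMO 2 below it. SBMO 2 deviated by -0.54 to -0.36. On this scale the Ctrl pools shared no such order, as Ctrl 1 was the highest of them for mcm2 (0.25) and the lowest for mcm5 (-0.09). In TPM, before scaling, Ctrl 1 was the highest Ctrl pool for all 5 genes. For mcm5 the Ctrl pools were nearly equal (13.9, 13.4 and 13.8 TPM), so their order turned on the scaling. Within SHMO larvae SHMO 1 had the highest summed level of the 5 (149 TPM) and SHMO 3 the lowest (122 TPM). Within SBMO larvae SBMO 3 had 79.7 TPM, SBMO 1 had 70.5 TPM and SBMO 2 had 42.0 TPM, a wider spread than among the Ctrl pools, which lay between 51.8 and 62.3 TPM.

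mcm7 encodes the ring subunit that lies between MCM4 and MCM3, and in vertebrates it is the subunit ubiquitylated when the helicase is taken off. Its levels were 47.0, 61.6 and 50.0 TPM in SHMO 1, 2 and 3, 51.9, 33.7 and 47.7 TPM in SBMO 1, 2 and 3, and 38.8, 30.3 and 27.1 TPM in Ctrl 1, 2 and 3. SHMO 1 was below SBMO 1 and SBMO 3, so the injected groups overlapped. mcm7 rose in SHMO against Ctrl by 0.66 (log2(FC), SE 0.175; limma, Benjamini-Hochberg adjusted p = 0.0439 over all genes). The log2(FC) was 0.48 in SBMO against Ctrl (adjusted p = 0.0714) and 0.18 in SHMO against SBMO (adjusted p = 0.588), neither past the threshold. The call in SHMO against Ctrl was lost in 10 of 20 alternatives, among them the removal of SHMO 2, SHMO 3, SBMO 3 or any Ctrl pool, with adjusted p between 0.0364 and 0.176.

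The share of mcm7 in the summed TPM of the ring was lower in SHMO pools than in the other pools. It was 23.9, 31.3 and 29.2% in SHMO 1, 2 and 3, 42.4, 44.5 and 37.4% in the SBMO pools, and 38.4, 36.9 and 34.0% in the Ctrl pools. The highest SHMO pool was below all 6 other pools, and SBMO 3 lay within the Ctrl range. Put as a ratio to the mean of the other 5 subunits, mcm7 was at 1.97 ± 0.362 in SHMO, 3.56 ± 0.522 in SBMO and 2.88 ± 0.274 in Ctrl (SD, n = 3 each). Its correlation with the 5 genes over the 9 pools was 0.672 to 0.831, lower than any pair among the 5. After the group means were removed, it was 0.393 to 0.750, a range that overlaps that of pairs among the 5 (0.713 to 0.966). Since the 5 genes in the ratio were chosen by their levels, the difference between mcm7 and the others was not tested.

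**Figure D3:**
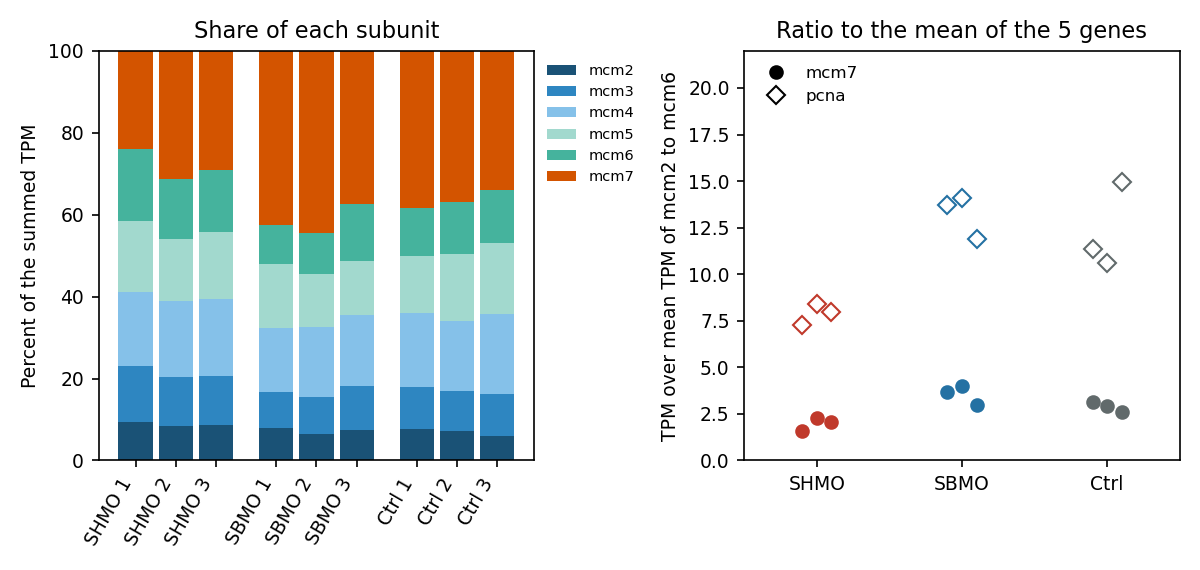
Left, the percent of the summed TPM of the 6 ring subunits (y axis) that each subunit takes in each pool (x axis). Right, TPM of mcm7 (filled circles) and pcna (open diamonds) divided by the mean TPM of mcm2 to mcm6 (y axis, from 0) in each pool of the 3 groups (x axis); mcm7 takes 23.9 to 31.3% in SHMO pools and 34.0 to 44.5% in the other pools.

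Of the other genes of the MCM family, mcmbp, whose product binds the other ring subunits in place of MCM2 and helps to build new rings, was the most like the 5. It had 10.9, 10.7 and 10.6 TPM in the SHMO pools, 6.84, 4.27 and 6.81 TPM in the SBMO pools and 5.65, 5.86 and 4.93 TPM in the Ctrl pools, with the SHMO pools above all others. It rose in SHMO against Ctrl by 0.89 (log2(FC), SE 0.175; limma, adjusted p = 0.0163) and in SHMO against SBMO by 0.78 (adjusted p = 0.0361), and its log2(FC) in SBMO against Ctrl was 0.11 (adjusted p = 0.664). The call in SHMO against Ctrl was lost in 5 of 20 alternatives, among them the removal of SHMO 2, SHMO 3, Ctrl 1 or Ctrl 3, and that in SHMO against SBMO in 9 of 20, among them the removal of any SHMO pool, of SBMO 2, of Ctrl 1 or of Ctrl 2.

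mcm10, a scaffold of helicase activation that is not a ring subunit, had 2.25, 1.89 and 1.59 TPM in the SHMO pools, 1.47, 0.59 and 1.53 TPM in the SBMO pools and 1.01, 0.87 and 0.48 TPM in the Ctrl pools. The SHMO pools lay above the other 6, but its log2(FC) of 1.16 (SE 0.377) in SHMO against Ctrl did not pass the test (limma, adjusted p = 0.0786). mcm8 and mcm9, which form a separate helicase used in recombination, were low, with 1.12 to 1.62 and 1.30 to 1.36 TPM in the SHMO pools, 0.94 to 1.45 and 0.87 to 1.00 TPM in the SBMO pools and 0.82 to 1.42 and 1.21 to 1.34 TPM in the Ctrl pools. For mcm8 the groups overlapped, whereas for mcm9 the SBMO pools lay below all SHMO and Ctrl pools. Neither was called in any comparison (for mcm9, adjusted p = 0.387 in SHMO against SBMO and 0.253 in SBMO against Ctrl). mcm3l, a second mcm3-like gene of zebrafish, had 0.18 to 0.23 TPM in the SHMO pools, 0.27 to 0.63 TPM in the SBMO pools and 0.11 to 0.27 TPM in the Ctrl pools, and mcmdc2 at most 0.04 TPM in any pool, both below the filter of 1 TPM.

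The genes that load, start, accompany and supply the helicase were counted in lists by function. Over the lists of licensing, helicase activation, fork and nucleotide supply with chromatin assembly together, 15 of 60 genes tested rose and 1 fell in SHMO against Ctrl, 5 rose in SBMO against Ctrl, and 0 were called in SHMO against SBMO (limma, same thresholds). Over all genes tested, 3.58% were called higher and 5.32% lower in SHMO against Ctrl, 8.31% higher in SBMO against Ctrl and 2.74% higher in SHMO against SBMO. The SBMO count of 5 is thus at the share of all genes and is no result about these lists. Their median log2(FC) was 0.52, 0.26 and 0.29 in these comparisons, beside 0.04, 0.05 and -0.02 over all genes. In 26 of the 60 the SHMO pools lay above all others, where 6.23% of all genes had them so. In SHMO against SBMO 50 of the 60 had a log2(FC) above 0, though none was called. Over the whole table, 4175 genes had an unadjusted p under 0.05 in SHMO against SBMO. The count of 15 was unstable to single pools, at 10 without SHMO 1, 2 without SHMO 2, 0 without SHMO 3, 4 without Ctrl 1, 5 without Ctrl 2, 7 without Ctrl 3 and 20 without SBMO 2. With the set of pools as a term it was 0. The count of 5 was between 1 and 4 when any pool was left out, at 1 when any 1 of the SBMO pools, Ctrl 1 or Ctrl 3 was left out.

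Among the loaders of the ring, 5 of 9 genes rose in SHMO against Ctrl and 1 of 9, orc2, rose in SBMO against Ctrl. Over all genes 3.58% and 8.31% were called higher in these comparisons, and nothing is read from the 1 call in SBMO. The median log2(FC) of the list was 0.77 for SHMO and 0.19 for SBMO against Ctrl, and 0.42 between SHMO and SBMO. cdt1, which brings the ring to the origin, had 3.58, 3.11 and 2.92 TPM in the SHMO pools, 2.09, 1.31 and 2.63 TPM in the SBMO pools and 1.68, 1.73 and 1.42 TPM in the Ctrl pools, and it rose in SHMO larvae by 0.88 (limma, adjusted p = 0.0457). cdc6, the ATPase that joins the origin recognition complex to load the ring, had 7.31, 7.26 and 7.57 TPM in the SHMO pools, 5.69, 4.63 and 6.82 TPM in the SBMO pools and 4.39, 3.97 and 3.70 TPM in the Ctrl pools. Its SHMO pools were nearly equal and above all others, and it rose by 0.80 against Ctrl (adjusted p = 0.0138), a call lost without SHMO 2 or SHMO 3.

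gmnn, geminin, which blocks CDT1, also had its 3 SHMO pools above the rest, with 12.4, 13.6 and 14.9 TPM, against 9.95, 8.36 and 10.6 TPM in the SBMO pools and 8.43, 7.03 and 10.4 TPM in the Ctrl pools. It rose in SHMO against Ctrl by 0.60 (limma, adjusted p = 0.0484). The loader and its inhibitor were thus both higher in SHMO larvae, and the gmnn call was lost in 13 of 20 alternatives, among them the removal of any pool but SHMO 1 or Ctrl 3. The cdt1 call was lost in 9 of 19, among them the removal of any SHMO or Ctrl pool. orc5 (log2(FC) of 0.87, adjusted p = 0.0397) and orc2 (0.90, adjusted p = 0.0251), subunits of the origin recognition complex, rose as well, each a call lost in 7 of 19 alternatives, among them the removal of SHMO 2, SHMO 3, Ctrl 1 or Ctrl 2. orc4 had a log2(FC) of 0.05 (adjusted p = 0.885) in SHMO against Ctrl. In 6 of the 9 genes the SHMO pools lay above all others, where 6.23% of all genes had them so.

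Of the genes that turn the loaded ring into the working helicase, none of 10 tested was called in any of the 3 comparisons, with medians of 0.29 for SHMO and 0.09 for SBMO against Ctrl, and 0.12 between SHMO and SBMO. Over all genes 3.58% were called higher and 5.32% lower in SHMO against Ctrl, and 8.31% and 11.5% in SBMO against Ctrl. In SHMO against SBMO the shares were 2.74% and 1.83%, so with 10 genes nothing is read from the count of 0. In 4 of the 10 the SHMO pools lay above all others, where 6.23% of all genes had them so. cdc45, the CMG partner that joins the ring at activation, had 4.15, 4.41 and 4.11 TPM in the SHMO pools, 4.09, 2.41 and 4.02 TPM in the SBMO pools and 3.22, 2.60 and 3.54 TPM in the Ctrl pools. In TPM before scaling its SHMO pools were the highest by a small margin. After scaling (factors of 1.06 for SHMO 1 and 1.03 for SBMO 1) SHMO 1 was below SBMO 1. The log2(FC) of 0.37 for cdc45 in SHMO against Ctrl did not pass the test (limma, adjusted p = 0.236). Among the GINS subunits, gins2 came nearest to a call with 0.84 (adjusted p = 0.0507) and gins4 had the opposite sign (-0.66, adjusted p = 0.105). The kinase genes cdc7 and dbf4 were at 0.57 (adjusted p = 0.0557) and -0.06 (adjusted p = 0.856).

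At the fork, 6 of 27 genes rose in SHMO against Ctrl and 3 in SBMO against Ctrl, and none was called in SHMO against SBMO, with medians of 0.52, 0.27 and 0.26. In 12 of the 27 the SHMO pools lay above all others, where 6.23% of all genes had them so. The share of all genes called higher was 3.58% in SHMO and 8.31% in SBMO against Ctrl, so the SBMO count is near that share. The 6 were lig1 (the ligase that seals Okazaki fragments, log2(FC) of 1.00, limma adjusted p = 0.0116), pold2 (a subunit of polymerase delta, 0.72, adjusted p = 0.0193), pola1 and pola2 (of the polymerase alpha complex that lays down primers, 0.76 and 0.66, adjusted p = 0.0332 and 0.0369), rfc1 (0.73, the large subunit of the clamp loader) and tipin (0.68, a fork protection factor). The calls of pola1, pola2, rfc1 and tipin were lost in 8 to 13 alternatives, in each case including the removal of any SHMO pool, of Ctrl 1 or of Ctrl 2. That of pold2 was lost without SHMO 2, SHMO 3 or Ctrl 2, and that of lig1 without SHMO 3. All 6 calls were lost with the set of pools as a term. lig1 (0.66, adjusted p = 0.031) and pold2 (0.61, adjusted p = 0.0219) rose in SBMO larvae too, as did pole2 (0.59, adjusted p = 0.0475), a subunit of polymerase epsilon. The pole2 call in SBMO was lost in 17 of 19 alternatives, the removal of any pool included. In SBMO lig1 lost its call in 7 of 20, among them the removal of SBMO 1, SBMO 3, Ctrl 1 or Ctrl 2, and pold2 in 6 of 20, among them the removal of SBMO 1, SBMO 2 or Ctrl 3. The difference of lig1 between SHMO and SBMO was 0.34 (adjusted p = 0.301).

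pcna, the sliding clamp and the usual marker of S phase, had 218, 227 and 193 TPM in the SHMO pools, 193, 119 and 190 TPM in the SBMO pools and 141, 110 and 157 TPM in the Ctrl pools. The lowest SHMO pool and the highest SBMO pool were nearly equal, and the log2(FC) of 0.59 in SHMO against Ctrl did not pass the test (limma, adjusted p = 0.0629). In SHMO against SBMO it was 0.29 (adjusted p = 0.364). In relation to the mean of mcm2 to mcm6, pcna was at 7.88 ± 0.557 in SHMO, 13.2 ± 1.18 in SBMO and 12.3 ± 2.32 in Ctrl (SD, n = 3 each), so per unit of clamp transcript the SHMO pools had more of the 5 subunits than any other pool. That ratio contains the genes chosen by their levels and was not tested.

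None of the 8 genes tested for removal of the helicase (cul2, lrr1, traip, vcp, ufd1, nploc4, faf1 and ubxn7) was called in any comparison, with a median of 0.28 for SHMO and 0.18 for SBMO against Ctrl, and 0.02 between SHMO and SBMO. For none of them did the SHMO pools lie above all others, where 6.23% of all genes had them so. Over all genes 3.58% were called higher and 5.32% lower in SHMO against Ctrl, and 8.31% and 11.5% in SBMO against Ctrl. In SHMO against SBMO the shares were 2.74% and 1.83%. With 8 genes nothing is read from these counts of 0.

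Of the genes of nucleotide supply and chromatin assembly behind the fork, 4 of 14 rose and 1 fell in SHMO against Ctrl, beside 3.58% and 5.32% of all genes. In 4 of the 14 the SHMO pools lay above all others, where 6.23% of all genes had them so. uhrf1, which guides maintenance methylation to new DNA, had 15.4, 9.59 and 10.8 TPM in the SHMO pools, 7.07, 3.87 and 8.30 TPM in the SBMO pools and 5.04, 5.16 and 4.25 TPM in the Ctrl pools, and it rose against Ctrl by 1.20 (limma, adjusted p = 0.0215). chaf1a, the large subunit of the chromatin assembly factor, rose by 1.12 (adjusted p = 0.0149) and the histone chaperone asf1b (ENSDARG00000043713) by 0.73 (adjusted p = 0.0277). Without SHMO 3 all 3 calls were lost, and asf1b and uhrf1 also lost theirs without Ctrl 1 or Ctrl 3, and asf1b and chaf1a without SHMO 2. asf1b also rose in SBMO larvae, by 0.60 (adjusted p = 0.0331), a call lost in 12 of 20 alternatives, among them the removal of any SBMO pool, SHMO 3, Ctrl 1 or Ctrl 3. uhrf1 had a log2(FC) of 0.84 in SHMO against SBMO (adjusted p = 0.0937). The other calls were the 2 identifiers of rrm2 that divide the pools, 1 higher (2.14) and 1 lower (-5.88), and both changed sign with the set of pools as a term. The sets are defined by these same identifiers, so the loss of their differences with that term was fixed in advance and nothing is read from it. The sum of the 2 identifiers was 84.1 to 95.8 TPM in the SHMO pools, 68.0 to 109 TPM in the SBMO pools and 63.3 to 81.3 TPM in the Ctrl pools.

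**Figure D4:**
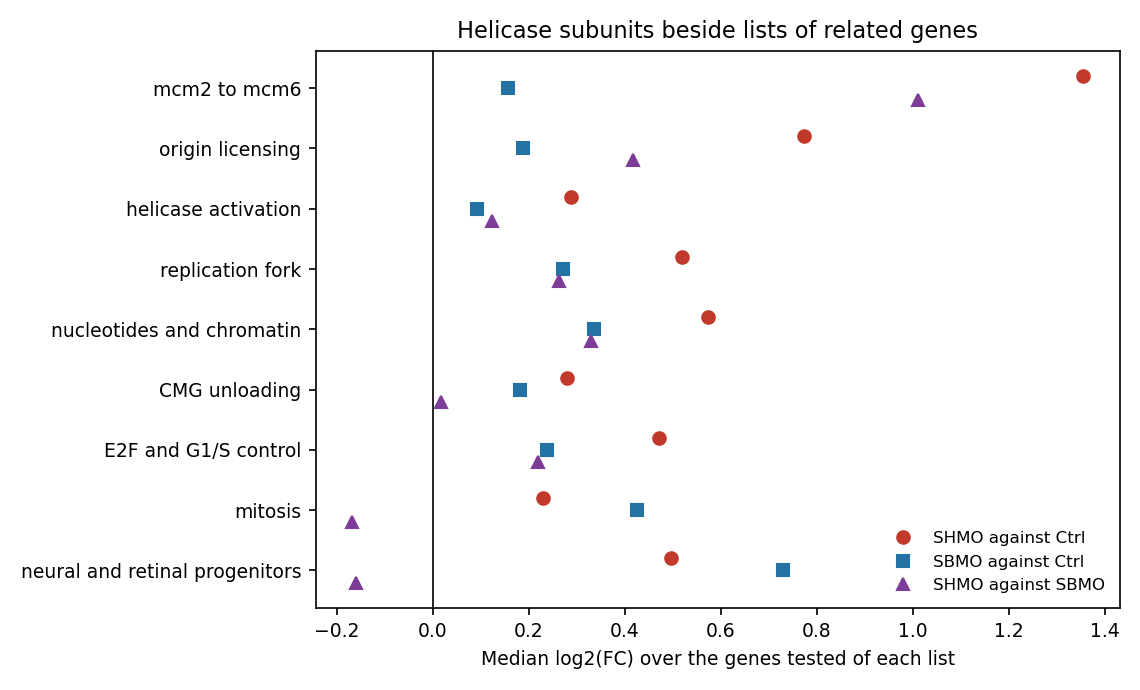
Median log2(FC) (x axis) of mcm2 to mcm6 and of 8 lists of related genes (y axis) in SHMO against Ctrl (circles), SBMO against Ctrl (squares) and SHMO against SBMO (triangles); the median of all genes lies between -0.02 and 0.05. The helicase subunits are at 1.35, 0.16 and 1.01, origin licensing at 0.77, 0.19 and 0.42, and mitosis at 0.23, 0.42 and -0.17.

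Among the regulators of entry into S phase, 4 of 22 rose in SHMO larvae and 1 in SBMO larvae when set against Ctrl, and 2 were higher in SHMO than in SBMO, with medians of 0.47, 0.24 and 0.22. Over all genes 3.58, 8.31 and 2.74% were called higher in these comparisons, so the count for SBMO lies below the share of all genes. MCM genes are known targets of E2F factors. e2f1, an activating E2F, was low, with 2.09, 1.96 and 1.91 TPM in the SHMO pools, 0.70, 0.36 and 1.05 TPM in the SBMO pools and 1.22, 0.90 and 1.25 TPM in the Ctrl pools. It was higher in SHMO than in SBMO by 1.40 (limma, adjusted p = 0.0432) and was not called against Ctrl in either group (0.72 in SHMO, adjusted p = 0.18). That call was lost in 13 of 19 alternatives, including the removal of any pool but SBMO 3.

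The genes of this group with the smallest adjusted p in SHMO against Ctrl encode proteins known as brakes on the cycle. cdkn1a, the p21 inhibitor of cyclin-dependent kinases, had 20.4, 17.8 and 14.1 TPM in the SHMO pools, 2.72, 5.38 and 7.73 TPM in the SBMO pools and 4.18, 2.04 and 3.56 TPM in the Ctrl pools. It rose by 2.36 against Ctrl (limma, adjusted p = 0.00539) and by 1.72 against SBMO (adjusted p = 0.0268), and the call against SBMO was lost when any 1 of the SHMO pools or SBMO 2 was left out. rbl1, the p107 pocket protein, rose by 1.90 in SHMO against Ctrl (adjusted p = 0.00581) and by 0.96 in SBMO against Ctrl (adjusted p = 0.0409), a call lost when any pool but SHMO 1 or SBMO 1 was left out. Its levels were 9.51, 10.2 and 10.4 TPM in the SHMO pools, 3.03, 6.97 and 5.53 TPM in the SBMO pools and 3.03, 2.60 and 1.97 TPM in the Ctrl pools. SBMO 1 was thus at the level of Ctrl 1, and only SBMO 2 and SBMO 3 were above the Ctrl pools. rb1, the retinoblastoma protein, rose by 0.97 (adjusted p = 0.0179) and e2f7, a repressing E2F, by 0.68 (adjusted p = 0.0487) in SHMO against Ctrl. Other brakes of the list were not called, among them the pocket protein rbl2 (0.29) and the kinase inhibitor cdkn1b (ENSDARG00000029018, 0.15). A second cdkn1b identifier, ENSDARG00000054271, went the other way without a call. It had 31.0, 30.9 and 37.5 TPM in the SHMO pools, 53.4, 41.9 and 39.2 TPM in the SBMO pools and 41.9, 47.1 and 51.0 TPM in the Ctrl pools. With pools left out in turn, cdkn1a and rbl1 were called each time in SHMO against Ctrl. With the set of pools as a term both calls were lost, at 1.06 for cdkn1a (adjusted p = 0.27) and 0.81 for rbl1 (adjusted p = 0.28). rb1 lost its call without SHMO 2, SHMO 3 or Ctrl 3, and e2f7 lost its call in 14 of 19 alternatives. The SHMO pools were above the other 6 in 9 of the 22 genes, where 6.23% of all genes had them so.

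Of the genes of mitosis none of 21 was called in SHMO against Ctrl, 3 rose in SBMO against Ctrl and 1 was lower in SHMO against SBMO, and in none of them did the SHMO pools lie above all others. Over all genes 3.58% were called higher and 5.32% lower in SHMO against Ctrl. The shares were 8.31% higher in SBMO against Ctrl and 1.83% lower in SHMO against SBMO. In 6.23% of all genes the SHMO pools lay above all others, so nothing is read from the counts of 0. The medians were 0.23, 0.42 and -0.17. ccnb1, cyclin B1, had 16.0, 21.7 and 17.2 TPM in the SHMO pools, 23.1, 13.2 and 20.0 TPM in the SBMO pools and 13.1, 10.3 and 8.23 TPM in the Ctrl pools. It rose in SBMO against Ctrl by 0.84 (limma, adjusted p = 0.0241), as did the spindle genes kif11 (0.62, adjusted p = 0.0356) and tpx2 (0.85, adjusted p = 0.0416). Each of these 3 calls was lost without SBMO 1, without SBMO 3 or without Ctrl 3, those of kif11 and tpx2 also without SHMO 3, Ctrl 1 or Ctrl 2, and that of tpx2 without SHMO 2. cenpe, a motor of the kinetochore, was lower in SHMO, with 5.81, 5.77 and 7.20 TPM, against 18.2, 9.33 and 11.4 TPM in SBMO and 10.8, 8.78 and 9.05 TPM in Ctrl, and it was called in SHMO against SBMO (-1.07, adjusted p = 0.0232), a call lost without SHMO 1 or SHMO 2. The summed TPM of the 21 genes was 238 to 279 in the SHMO pools, 203 to 368 in the SBMO pools and 195 to 233 in the Ctrl pools. SBMO 2, the lowest pool for all 5 helicase genes among the injected larvae, was also the SBMO pool with the lowest summed mitosis level.

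**Figure D5:**
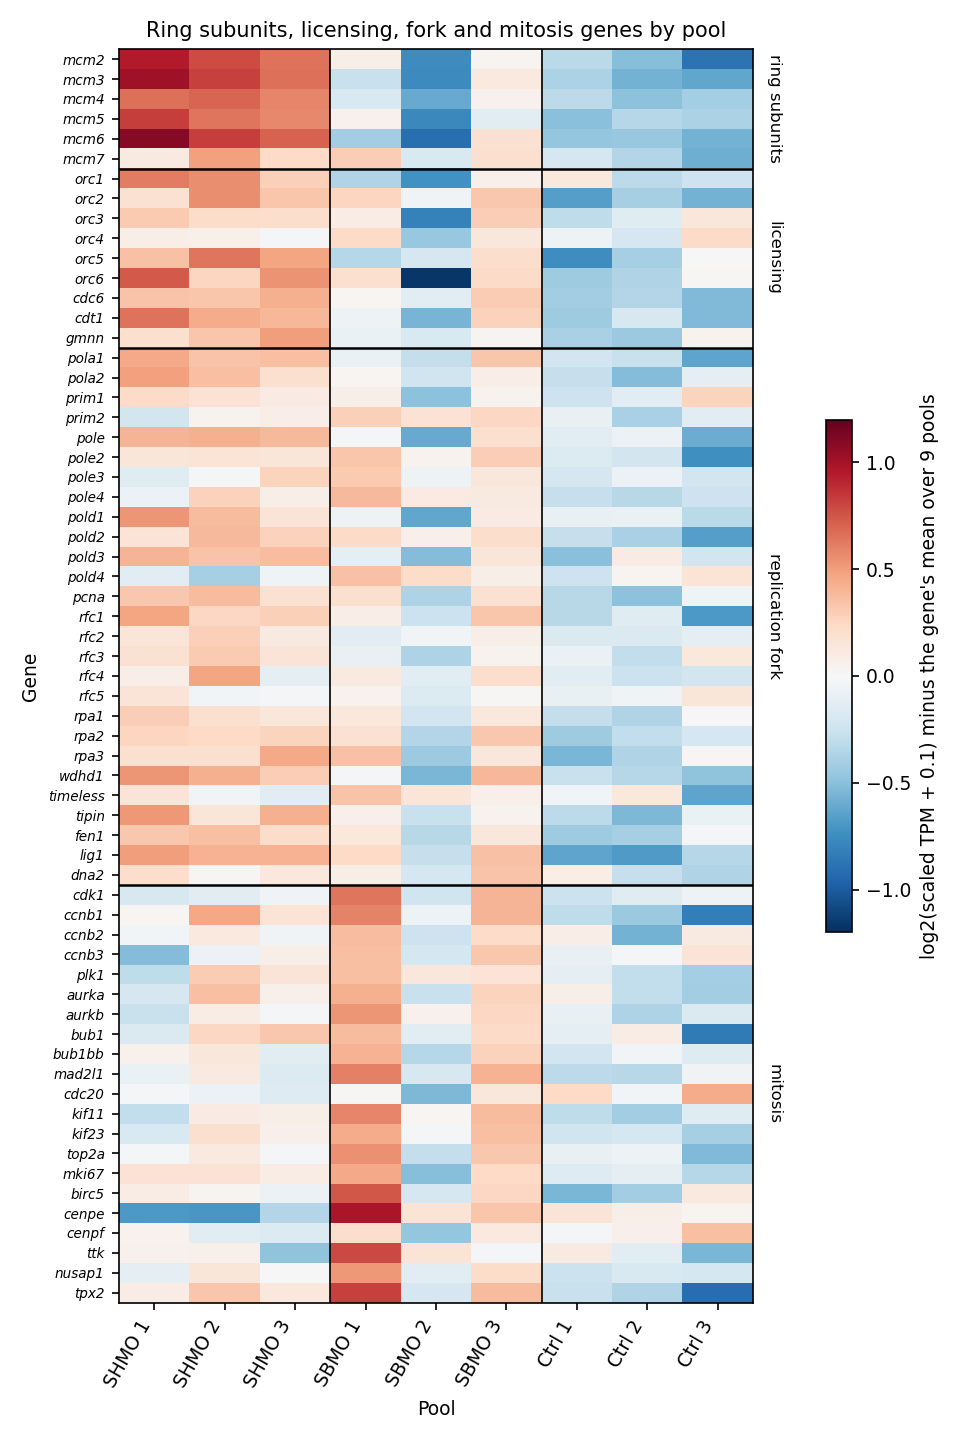
Colour gives log2(scaled TPM + 0.1) minus the mean of the gene over the 9 pools, for the 6 ring subunits and the tested genes of licensing, the fork and mitosis (y axis) in each pool (x axis), 63 genes in all. Ring subunits other than mcm7 are deepest red in the SHMO pools, and mitosis genes are red mainly in SBMO 1 and SBMO 3.

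Markers of neural and retinal progenitors, which divide in larvae of this age, were examined as a list of another kind of cell that could carry MCM transcripts. In SHMO against Ctrl 4 of 18 rose (sox19a, rx2, 1 identifier of insm1 and 1 of fabp7), in SBMO against Ctrl 11 rose, and in SHMO against SBMO 1 was lower, her4.2. Over all genes 3.58% and 8.31% were called higher against Ctrl and 1.83% lower in SHMO against SBMO. The medians of the list were 0.50, 0.73 and -0.16. In SHMO against Ctrl the calls were lost in 7 of 20 alternatives for sox19a, 12 for rx2, 8 for insm1 and 5 for fabp7. In SBMO against Ctrl the 4 with the smallest adjusted p were her4.2 (0.90), fabp7 (0.92), sox3 (0.72) and sox19a (0.96). Their adjusted p ran from 0.00558 to 0.0119 (limma). In SBMO the calls of her4.2, fabp7 and sox3 were kept in 20 of 20 alternatives and that of sox19a in 19, while insm1 (ENSDARG00000053301) lost its call in 4. The rest of the 11 calls, with adjusted p from 0.0178 (ascl1a) to 0.0498 (the second insm1 identifier; limma), were not followed through the alternatives. The summed TPM of the list was 1426 to 1841 in the SHMO pools, 1590 to 1961 in the SBMO pools and 1040 to 1104 in the Ctrl pools. In this sum both injected groups exceeded Ctrl and overlapped each other. Most of the sum was fabp7 (ENSDARG00000007697), with 857 to 1202 TPM in the SHMO pools, 983 to 1281 TPM in the SBMO pools and 567 to 657 TPM in the Ctrl pools. her4.2, a Notch target of neural progenitors, had 24.1, 26.8 and 28.3 TPM in the SHMO pools, 49.5, 39.03 and 45.7 TPM in the SBMO pools and 24.3, 22.2 and 26.0 TPM in the Ctrl pools (-0.84 in SHMO against SBMO, limma, adjusted p = 0.0100). Of the thymus and blood progenitor markers 2 passed the filter and 0 were called, and their summed level over the matched identifiers was 11.9 to 16.8 TPM in the SHMO pools, 8.52 to 13.5 TPM in the SBMO pools and 10.6 to 13.7 TPM in the Ctrl pools. What part these cells have in the levels of the ring subunits was not tested.

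Among the 11706 genes that averaged 5 TPM or more, those whose level across the 9 pools was most like the mean profile of the 5 subunits were, by Pearson's r, STIP1 (0.981), CDCA7 (0.981), THOP1 (0.977), rnf214 (0.976), mcmbp (0.975), SERPINH1 (0.973), COTL1 (0.973), UMPS (0.970), NMT1 (0.970) and HSPA5 (0.970). These pools share libraries and groups, so r is a description. mcmbp, of the MCM relatives, was the only gene among them that belongs to any of the lists examined here. CDCA7 encodes a chromatin factor of cycling cells, and STIP1, SERPINH1 and HSPA5 encode a co-chaperone, a collagen chaperone and the main chaperone of the endoplasmic reticulum.

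CDCA7 had 33.1, 31.9 and 31.3 TPM in the SHMO pools, 18.5, 9.40 and 19.03 TPM in the SBMO pools and 11.8, 11.3 and 11.4 TPM in the Ctrl pools, at levels close to those of mcm6. SERPINH1 covered a far wider range, with 131, 96.2 and 92.9 TPM in the SHMO pools, 9.03, 6.20 and 30.9 TPM in the SBMO pools and 11.8, 6.21 and 8.16 TPM in the Ctrl pools. Pearson's r does not depend on the size of the difference, which for STIP1 was 0.45 and for SERPINH1 3.56 in SHMO against Ctrl. pcna stood at rank 218 (r of 0.835) and mcm7 at rank 477 (r of 0.749).

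The genes most unlike the 5 subunits were mkrn1 (r of -0.980), ENSDARG00000117755 (-0.978), CALCOCO1 (-0.977), SESN1 (-0.977) and CASP9 (-0.976). SESN1, a stress-induced regulator of growth signalling, had 69.6, 72.5 and 75.1 TPM in the SHMO pools, 114, 122 and 91.3 TPM in the SBMO pools and 141, 125 and 120 TPM in the Ctrl pools. CASP9, the initiator caspase of mitochondrial cell death, had 4.92, 5.66 and 7.38 TPM in the SHMO pools, 11.0, 12.8 and 9.09 TPM in the SBMO pools and 13.3, 10.4 and 12.8 TPM in the Ctrl pools. In both genes SBMO 3 was the SBMO pool nearest to SHMO, as it was for mcm3, mcm4 and mcm6. With Spearman's rho in place of Pearson's r, 3 of the 10 most alike and 2 of the 5 least alike were shared, so the names at either end depend on the measure.

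Genes of the circadian clock also set the SHMO pools apart. In SHMO against Ctrl 12 of 28 rose and 9 fell, in SBMO against Ctrl 3 rose and 1 fell, and in SHMO against SBMO 10 were higher and 8 lower (limma, same thresholds). The shares of all genes were 3.58% and 5.32%, 8.31% and 11.5%, and 2.74% and 1.83% in the same order. per1 (ENSDARG00000056885), a repressor of the clock, had 9.51, 12.4 and 12.0 TPM in the SHMO pools, 0.76, 0.64 and 1.72 TPM in the SBMO pools and 0.62, 0.71 and 0.37 TPM in the Ctrl pools. The SHMO pools stood far above the others, as they also did for dbpb, ciarta and dbpa. rorcb, a nuclear receptor of the clock, went the other way, with 2.19, 2.76 and 2.66 TPM in the SHMO pools, 40.0, 44.4 and 24.7 TPM in the SBMO pools and 35.4, 32.0 and 28.1 TPM in the Ctrl pools. In 13 of the 28 the SHMO pools lay above all others, where 6.23% of all genes had them so. The hour of collection is not given in the sources used here, and the part of the clock in the levels of the ring subunits was not tested.

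Markers of the pancreas (prss1) and skin (krt4) fell in both injected groups, and those of the gut (fabp2) and liver (fabp10a) fell in SBMO against Ctrl. In SHMO against Ctrl fabp2 (-1.02) and fabp10a (-0.49) were also below 0 but not called (limma, adjusted p = 0.181 and 0.153). The SHMO pools of fabp10a (1086.5 to 1467.3 TPM) lay below its Ctrl pools (1536.4 to 1958.4 TPM), whereas for fabp2 SHMO 1 lay within the Ctrl range. Both identifiers of the neuronal gene snap25 rose in SBMO against Ctrl, by 0.68 (ENSDARG00000020609) and 0.91 (ENSDARG00000058117). Of the rho identifiers for rod opsin, ENSDARG00000002193 had the highest level, 551 to 1737 TPM over the pools, and was not called in any comparison. Its log2(FC) was 0.57 in SHMO and 0.84 in SBMO against Ctrl, and -0.27 in SHMO against SBMO. ENSDARG00000111860, at 3.47 to 13.68 TPM, rose in SBMO against Ctrl by 1.11. ENSDARG00000070666, at 3.86 to 9.5 TPM, had a log2(FC) of -1.11 in SHMO against Ctrl and of -0.64 in SHMO against SBMO. col2a1 (ENSDARG00000011407), a collagen of cartilage, was higher in SHMO than in SBMO by 0.69. TPM sums to a fixed total, so their values stand beside the others. prss1, a trypsinogen of the exocrine pancreas, had 530, 46.2 and 41.2 TPM in the SHMO pools, 21.6, 34.7 and 145 TPM in the SBMO pools and 836, 1077 and 1556 TPM in the Ctrl pools. SHMO 1 was the injected pool nearest to Ctrl for prss1, while for mcm2, mcm3, mcm5 and mcm6 it was the pool farthest from Ctrl. Of the 18 tissue markers tested 0 rose and 3 fell in SHMO against Ctrl, 3 rose and 4 fell in SBMO against Ctrl, and 1 was higher and 1 lower in SHMO against SBMO. The shares of all genes were 3.58% higher and 5.32% lower, 8.31% higher and 11.5% lower, and 2.74% higher and 1.83% lower in these comparisons. The calls of prss1 and krt4 in SHMO against Ctrl were lost without SHMO 2, SHMO 3 or any Ctrl pool. The part of these tissues in the levels of the ring subunits was not tested.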

How the data were processed

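Poly(A) RNA of whole larvae was sequenced, and the authors deposited 1 TPM value per gene and pool, to 2 decimals, with the same total in each library. Per the submitters' processing notes, reads were aligned to GRCz11 with STAR and quantified with RSEM. Their versions are not given in the sources at hand. TPM are not counts, so no count model was run and the depth of each library is unknown from the values.

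For the fit, libraries were scaled by median ratios (factors 0.930 to 1.08), 0.1 was added, which shrinks the log2(FC) of low genes, and log2 taken. The 19051 genes that averaged 1 TPM or more entered 1 limma fit of the 3 groups (limma 3.58.1, R 4.3.3, prior variance with trend, 4.14 prior degrees of freedom), adjusted by Benjamini-Hochberg over all genes in each comparison. A call needed an adjusted p up to 0.05 and a log2(FC) of 0.58 or more in either direction. p-values measure only the spread between these pools. The fit was tested on simulated data with planted changes, independent genes and no sets of pools. That test does not bear on how the sets or single pools affect the calls here. Python 3.11.15 with matplotlib 3.10.9 drew the figures.

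The 5 members, the 12 lists (183 of 199 symbols matched in a table of Ensembl gene names) and the tests were chosen with earlier results of these data known. Genes named are the 5 members, mcm7, pcna and the MCM relatives, from each other list up to 4 called genes with the smallest adjusted p in each direction and comparison, gmnn, cdt1, cdc6 and cdc45 whatever their result, up to 6 clock genes, and the 10 most and 5 least like the members. orc4, gins2, gins4, cdc7, dbf4, rfc1, tipin, rbl2, cdkn1b, a rho identifier (ENSDARG00000002193), the CMG unloading genes and actc1b were named after their values were seen. Alternatives were other pseudocounts, filters, scalings and priors, no log2(FC) threshold, only the 2 groups compared, the replicate number as a block and each pool left out. A term for the sets of pools was chosen after seeing the data.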

Additional observations from a re-analysis of the deposited data

Results flagged for a closer look

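In 4 genes of the lists of replication, S-phase entry and mitosis the SHMO effect differed from the SBMO effect by a direct test of SHMO against SBMO (limma, Benjamini-Hochberg adjusted over all genes). mcmbp differed by 0.78 (log2(FC), adjusted p = 0.0361), and all 3 SHMO pools were above all 6 others. cdkn1a differed by 1.72 (adjusted p = 0.0268) and e2f1 by 1.40 (adjusted p = 0.0432), again with all 3 SHMO pools above all 6 others. cenpe differed by -1.07 (adjusted p = 0.0232), with all 3 SHMO pools below all 6 others. These were 1 of 5 MCM relatives tested, 2 of 22 genes of S-phase entry and 1 of 21 of mitosis. None of the 60 tested genes of the 4 replication lists was called. Over all genes 2.74% were called higher and 1.83% lower, so nothing is read from the count of 4. Of the alternatives, mcmbp lost its call in 9 of 20, cdkn1a in 5 of 20, e2f1 in 13 of 19 and cenpe in 3 of 20. The cause of these differences was not tested.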

How the results depend on the processing

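The median log2(FC) of the 5 members kept its direction in each of 20 alternatives, between 1.21 and 1.44 for SHMO and between 0.01 and 0.38 for SBMO against Ctrl, and between 0.74 and 1.16 in SHMO against SBMO, where the lowest value came without SBMO 2. With each pool left out in turn, the genes called in all ranged from 417 to 2597 for SHMO (1695 with all pools) and from 1031 to 4262 for SBMO against Ctrl (3772), and from 189 to 1279 in SHMO against SBMO (871), the members called from 0 to 5 in SHMO against SBMO, and the genes called higher of the 4 replication lists (partner genes) from 0 to 20, 1 to 4 and 0 to 2. With a filter at 5 TPM, 1032 and 2299 genes were called in SHMO and SBMO against Ctrl, and 3 partner genes rose in SBMO. Without a filter 9 partner genes rose in SHMO against Ctrl. For SBMO against Ctrl, 1 partner gene rose with a pseudocount of 1, 2 with a pseudocount of 0.5 and 3 without further scaling. With only the 2 groups compared, 115 genes and 0 members were called in SHMO against SBMO, and 1 partner gene rose in SBMO against Ctrl. The set of pools as a term left 224, 1379 and 567 genes called, 0 members in SHMO against Ctrl and 0 partner genes in either comparison with Ctrl, and it turned both identifiers of rrm2 to 0.67 (ENSDARG00000020711) and -0.35 (ENSDARG00000078069). The sets are defined by the rrm2 identifiers, so nothing is read from their change. Without further scaling, the share of higher calls was 52.5% in place of 40.2% in SHMO against Ctrl and 70.5% in place of 59.9% in SHMO against SBMO, and the median of all genes was 0.11 in SHMO against Ctrl. With the filter at 5 TPM the share in SBMO against Ctrl was 52.2% in place of 42.0%, and with the set of pools it was 10.7, 24.4 and 47.6% in the 3 comparisons. The cause of these shifts was not tested. Same-numbered pools did not deviate together (r from -0.26 to 0.15, beside -0.31 to 0.33 for pools of different numbers). The pools were therefore not treated as paired, though so few pools per group cannot settle whether the numbers pair them. With the replicate block 1111 genes were called and 8 partner genes rose in SHMO against Ctrl, and 2 rose in SBMO against Ctrl. TPM carry no depth, so what counting error limits is unknown here.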
